A study of Rattus norvegicus with 24 samples.

Results

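The effect of maternal diet was examined over 12 pairs of consecutively titled hypothalamic RNA-seq libraries, each pair being the summed counts of 1 library labelled male and 1 labelled female, which accounts for all 24 libraries of the study. The members were chosen by title number alone: titles 1 to 12 gave 6 pairs (pairs 1 to 6) of offspring whose dams ate the control diet (CON-O, with 12% of the digestible energy as lipids), and titles 13 to 24 gave 6 pairs (pairs 7 to 12) of offspring of dams fed the high fat diet (HFD-O, 43%). All animals were Sprague Dawley rat pups killed at postnatal day (PN) 10, and in both groups the dams ate their diet from before mating through gestation and lactation until that day. Each library came from the whole hypothalamus of a pup, and within every pair the odd title is labelled male and the even title female. The labels do not say which pups were littermates, nor whether consecutive titles share a dam, so a pair is a unit of title order and the p-values measure the spread between pairs. The diets are not mixed in title order, so any difference in handling that goes with that order cannot be told apart from diet.

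The hypothalamus holds the neurons that govern feeding, energy use, stress and reproduction, and in the rat its feeding circuits are still being wired during the suckling period, when the pup receives the fat of its mother's milk. Proteins that a cell secretes or places in its membranes are folded in the endoplasmic reticulum (ER) by chaperones such as Hspa5 and by the protein disulphide isomerases, and their genes are induced together when unfolded protein accumulates. A dissected hypothalamus also carries its surroundings: the leptomeninges on its ventral surface, which make collagen and Igf2, blood in its vessels, and, at its caudal edge, the midbrain with its dopamine neurons.

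The 12 pair sums held 12716032 to 15544361 counts (median 13757528 for CON-O, 13954306.5 for HFD-O). The library labelled male supplied 50.1 to 54.7% of a pair's counts. Of 13860 genes named once in both tables, 11981 had enough counts to be tested. Values are CPM of a pair unless said otherwise, that is, counts scaled to a common total, and differences between the diets were read against the spread of 6 pairs a diet. The origin of the tissue was described by summed levels of regional genes. For 22 hypothalamic transcription factor genes the sum was 499.9 to 647.8 CPM over the pairs. Summed levels were 156.8 to 201.7 CPM for 7 telencephalic genes and 5.83 to 11.8 CPM for the 7 genes of the anterior pituitary found in the tables, of which 2 had enough counts to be tested. For 9 thalamic genes the sum was 245.8 to 521.7 CPM in CON-O and 280.4 to 447.9 CPM in HFD-O. In CON-O pair 6 the thalamic sum (521.7 CPM) was above that of the hypothalamic factors (499.9 CPM). The part of neighbouring tissue in the libraries was not tested.

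One pair went against its sex labels. Eif2s3x and Ddx3x, X-linked genes that escape inactivation in rodents and so are higher in females, were higher in the library labelled female in 11 of 12 pairs. In HFD-O pair 9 (titles 17 and 18) Eif2s3x was at 268.3 CPM in the library labelled male and 184.8 CPM in the one labelled female, whereas in the other 11 pairs it was at 178.8 to 202.2 CPM in those labelled male and 266.8 to 292.8 CPM in those labelled female. Ddx3x in pair 9 was likewise at 464.5 CPM under the male and 372.3 CPM under the female label, against 382.4 to 427.2 CPM and 438.4 to 513.7 CPM elsewhere. LOC680227, which the reference used here does not annotate, had at most 1 count in the other libraries labelled male and 3.398 to 19.92 CPM in the other libraries labelled female, but was at 9.09 CPM in the library of pair 9 labelled male and at 0 in the one labelled female. Pbdc1, another X-linked gene, was at 30.8 and 31.3 CPM in the libraries of pair 9, close together, while in the other pairs its ranges did not meet (22.4 to 28.5 CPM and 29.8 to 42.7 CPM). A pair sum is the same whichever way its libraries are named, so the diet comparison over pairs does not depend on these labels. Unless said otherwise, the counts and fold changes below for a single sex are given with and without pair 9, and some of them differ.

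**Figure D1:**
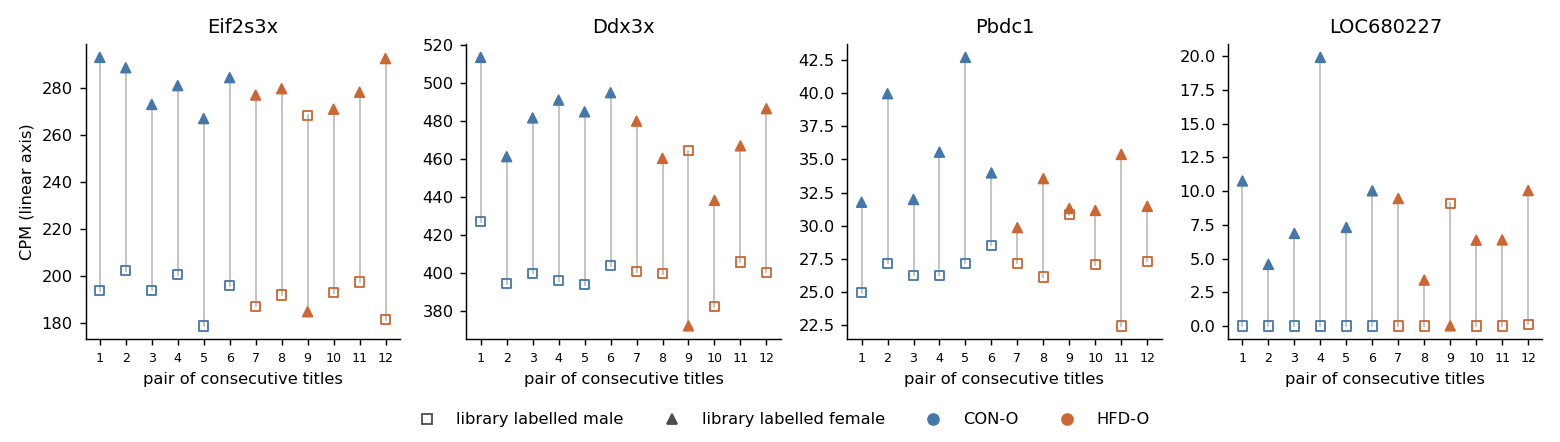
CPM of 4 genes with female-biased levels in the library labelled male (open squares) and the library labelled female (filled triangles) of each pair of consecutive titles, blue for CON-O and orange for HFD-O, joined by a line. Eif2s3x, Ddx3x and LOC680227 are higher under the female label in 11 of 12 pairs and lower in pair 9, where Pbdc1 is nearly level.

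A second library stood apart in the level of several regional genes. In CON-O pair 6 the library labelled male held 2 counts of Agrp (0.302 CPM), the feeding peptide of the arcuate nucleus, against 5.02 to 15.3 CPM in the other 23 libraries. Pomc, the precursor of the arcuate satiety peptides, was at 5.43 CPM there and at 16.0 to 34.6 CPM elsewhere. Hdc, which makes histamine in the tuberomammillary nucleus, was at 8.30 CPM (33.4 to 78.0 CPM elsewhere), and Foxb1, a transcription factor of the mammillary region, at 6.79 CPM (17.1 to 55.8 CPM). Rax, Tbx3 and Nr5a1 lay below the range of the other 23 as well. Sst, at 229.3 CPM (153.3 to 225.5 CPM elsewhere), and Gal, at 33.8 CPM (19.4 to 30.9 CPM), lay above it. Avp, Oxt and Trh, peptides of more rostral and dorsal nuclei among others, lay within it: Avp was at 182.2 CPM (73.1 to 240 CPM elsewhere), Oxt at 145.7 CPM (61.1 to 203.4 CPM) and Trh at 153.5 CPM (109 to 177 CPM). These genes were picked after their values were seen. Without pair 6 no gene passed the test over pairs, as with it.

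The libraries of a pair varied together. For each library the deviation of log2 CPM from the mean of its own sex and diet was taken for 11648 genes, and across genes the correlation between the male and the female library of a pair was positive in all 12 pairs (r = 0.0208 to 0.378, median 0.218). Over the 60 combinations of a male with a female of another pair of the same diet, r ranged from -0.344 to 0.239 with a median of -0.037. Deviations of 6 libraries sum to 0, which by construction holds the other combinations slightly below 0 when the own pairs are above it. In 8 of 12 pairs the library labelled male correlated best with its own partner, and without pair 9 the median over own pairs was 0.231. Genes are not independent and libraries adjacent in title may share handling, so these values are a description, and what the libraries of a pair have in common was not tested.

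The sharing was also counted for gene lists, with no test. Immediate early genes, which neurons switch on within minutes of activity or stress, had summed levels on the same side of their group mean in both libraries of a pair in 12 of 12 pairs, the highest number among 39 gene lists (lowest 5, median 7). Their summed level ran from 204.7 to 275.2 CPM over CON-O pairs and from 218.2 to 252.6 CPM over HFD-O pairs, so that the pairs differed among themselves and the diets overlapped. Myelin genes, genes of ER-associated degradation and genes of fatty acid oxidation and lipid sensing shared a side in 10 pairs each, while ER chaperones, midbrain dopamine genes and X-linked genes did so in 5. The lists named here were singled out after their values were seen.

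Over pairs, no gene passed the test for maternal diet. Of 11981 genes edgeR's quasi-likelihood test called 0 higher (0%) and 0 lower (0%) at adjusted p 0.05, while an unadjusted p under 0.05 was found for 550 higher (4.59%) and 379 lower (3.16%) genes. At the top of the ranking an adjusted p of 0.0974 was shared by Slc12a4, Hspa5, Myh14 and Pdia4, all higher in HFD-O. Other tests on the same 12 sums differed: the likelihood ratio test called 25 genes higher (0.209%) and 0 lower, DESeq2 17 higher (0.142%) and 0 lower, and limma-voom 0 with a smallest adjusted p of 0.117. For 41 genes (0.342%) all 6 HFD-O pairs lay above all 6 CON-O pairs, and for 22 genes (0.184%) all lay below. The median log2 fold change over all genes was -0.0045, with 47.9% of genes higher in HFD-O.

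Of the 4 genes that shared the smallest adjusted p, 2 encode ER chaperones or folding enzymes. Hspa5 encodes BiP, the principal chaperone of the ER lumen. Over CON-O pairs its level had a lowest value of 682.1, a median of 698.5 and a highest of 741.3 CPM, and over HFD-O pairs 784.6, 795.6 and 811.7 CPM. The groups did not overlap, and the gap between them was wider than the spread of the HFD-O pairs. The log2 fold change was 0.17 ± 0.030 (SE, n = 6 pairs a diet; quasi-likelihood adjusted p = 0.0974; two-sided exact permutation p = 0.00216, the smallest that 6 pairs against 6 allow). DESeq2 gave an adjusted p of 1.41e-07 for the same difference. The permutation p takes its smallest value for every gene without overlap between the diets, as for 63 of the 11981 genes tested. Hspa5, Pdia4 and Slc12a4 were named for their small p in these same sums, so their permutation p adds no separate support.

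Pdia4, a protein disulphide isomerase that forms the disulphide bonds of secreted proteins, was at 63.5, 70.0 and 74.4 CPM (lowest, median, highest) over CON-O pairs. Over HFD-O pairs it was at 80.0, 83.7 and 92.4 CPM, again with no overlap (log2 fold change 0.28 ± 0.049, quasi-likelihood adjusted p = 0.0974, two-sided exact permutation p = 0.00216). Pdia6, a second isomerase, was at 189.3, 202.5 and 209.5 CPM against 214.2, 221.9 and 237.9 CPM (log2 fold change 0.15 ± 0.036, adjusted p = 0.384). Hsp90b1, the ER form of heat shock protein 90 (GRP94), was at 604.5, 648 and 670.2 CPM in CON-O and 693.8, 702.1 and 719.9 CPM in HFD-O (log2 fold change 0.13 ± 0.031, adjusted p = 0.388). All 4 genes had every HFD-O pair above every CON-O pair, and none passed the quasi-likelihood test over all genes.

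**Figure D2:**
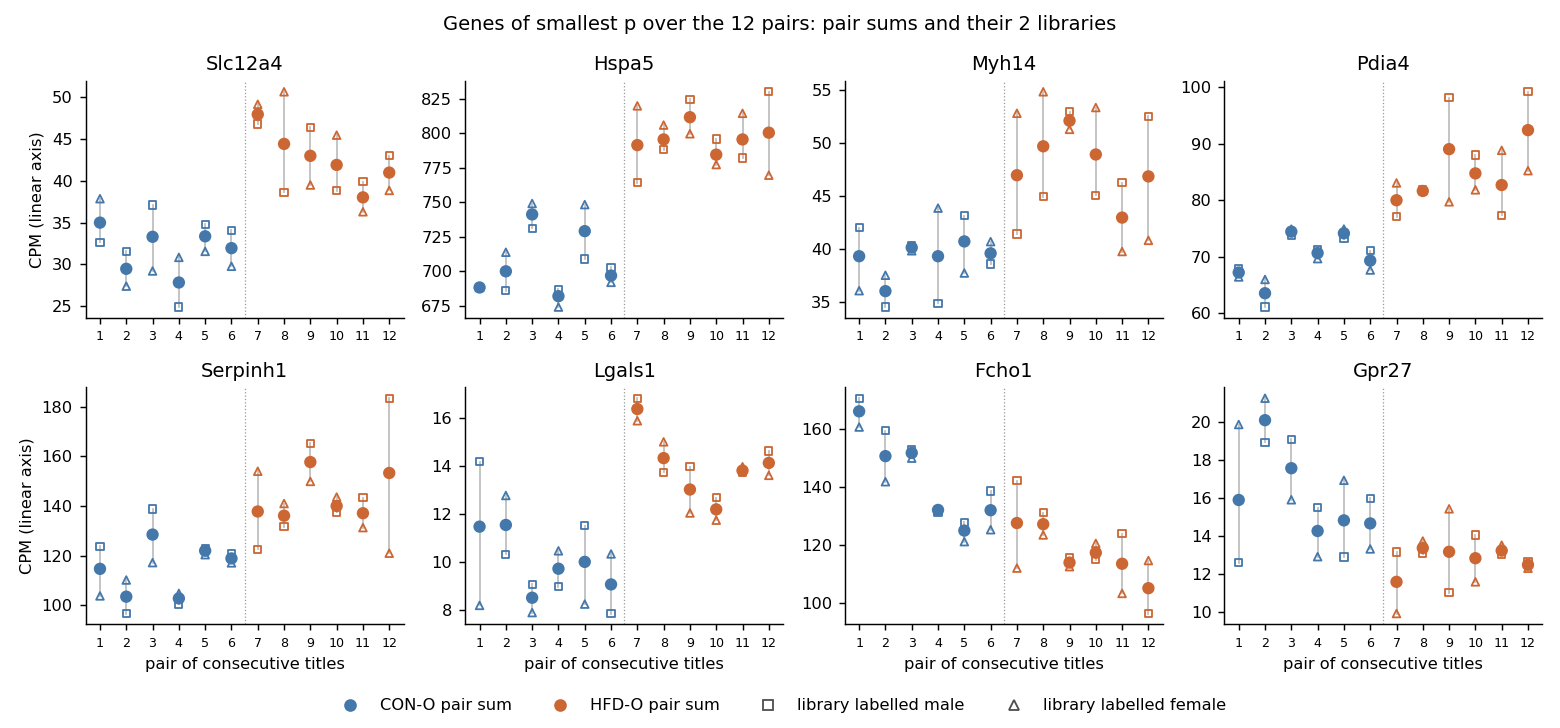
CPM of 8 genes of small p in each of the 12 pairs of consecutive titles, on linear axes that do not start at 0, with the pair sum (filled circle, blue for CON-O and orange for HFD-O) and the libraries labelled male (open square) and female (open triangle). For Slc12a4, Hspa5, Myh14, Pdia4, Serpinh1 and Lgals1 all 6 HFD-O pair sums lie above all 6 CON-O pair sums, while for Gpr27 all 6 lie below and those of Fcho1 meet.

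Across the list of 29 ER chaperones and folding enzymes, 25 were higher and 4 lower in HFD-O, and 12 (41.4%) had an unadjusted p under 0.05, all higher, where 4.59% of all genes did. None was called over all genes. Their median log2 fold change was 0.0814 against -0.0045 over all genes. The summed level of the list was 6156 to 6615 CPM over CON-O pairs (median 6476) and 6774 to 6975 CPM over HFD-O pairs (median 6842), without overlap. In single libraries it did overlap, from 6169 to 6697 CPM (CON-O) and 6577 to 6967 CPM (HFD-O) under the male label and from 6117 to 6627 CPM and 6603 to 7041 CPM under the female label, ranges that are the same without pair 9. The 2 libraries of a pair differed by at most 1.06 times in this sum. Leaving out each pair in turn left 25 or 26 members higher and 8 to 14 with an unadjusted p under 0.05. The list was drawn up with these values known, so its counts describe the data and are not independent evidence.

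The next members by p were Calr, a calcium-binding lectin chaperone (log2 fold change 0.12 ± 0.039), and Sdf2l1, an ER stress-inducible cofactor of Hspa5 (0.39 ± 0.13). Sdf2l1 was low, at 6.61 to 12.5 CPM in CON-O and 10.2 to 13.2 CPM in HFD-O, so the pairs overlapped. Creld2 (0.22 ± 0.080), Dnajb11 (0.094 ± 0.037), Manf (0.12 ± 0.049), Sil1 (0.13 ± 0.058), Dnajc3 (0.17 ± 0.077) and Pdia3 (0.071 ± 0.032) completed the 12. Outside the 4 of smallest p these members are named because they completed the count. The member farthest in the other direction was Ero1l, an oxidase that recharges the isomerases (log2 fold change -0.064 ± 0.058).

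The genes that sense and signal ER stress had no median shift of the size seen in the chaperones. Of 16 sensors and effectors of the unfolded protein response 4 were higher and 12 lower, with a median log2 fold change of -0.0236, but 8 were higher without CON-O pair 2 or in the female libraries alone (9 there without pair 9), and 7 without CON-O pair 6, HFD-O pair 9 or HFD-O pair 12, and their summed level was 963.2 to 1006 CPM in CON-O and 958 to 1007 CPM in HFD-O. Xbp1, the transcription factor activated by splicing in this response, had a log2 fold change of 0.084 ± 0.036 (unadjusted p = 0.0339; its splicing cannot be read from gene counts), and Creb3l1, a related membrane-bound factor, of 0.24 ± 0.10. Ddit3, which encodes the pro-apoptotic factor CHOP, was at 32.7 to 44.1 CPM in CON-O and 31.2 to 41.1 CPM in HFD-O, and Atf4 at 259.8 to 324 CPM and 265 to 307.8 CPM. Of 12 genes of ER-associated degradation 5 were higher and 7 lower, the one of smallest p being Nploc4 (log2 fold change -0.11 ± 0.034), a cofactor that extracts proteins for the proteasome (1 lower gene with an unadjusted p under 0.05, and 3 without HFD-O pair 12). Of 12 cytosolic heat shock chaperones 11 were higher, the median log2 fold change over all 12 was 0.0394, and 1 had an unadjusted p under 0.05, Hsph1 (0.090 ± 0.036).

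**Figure D3:**
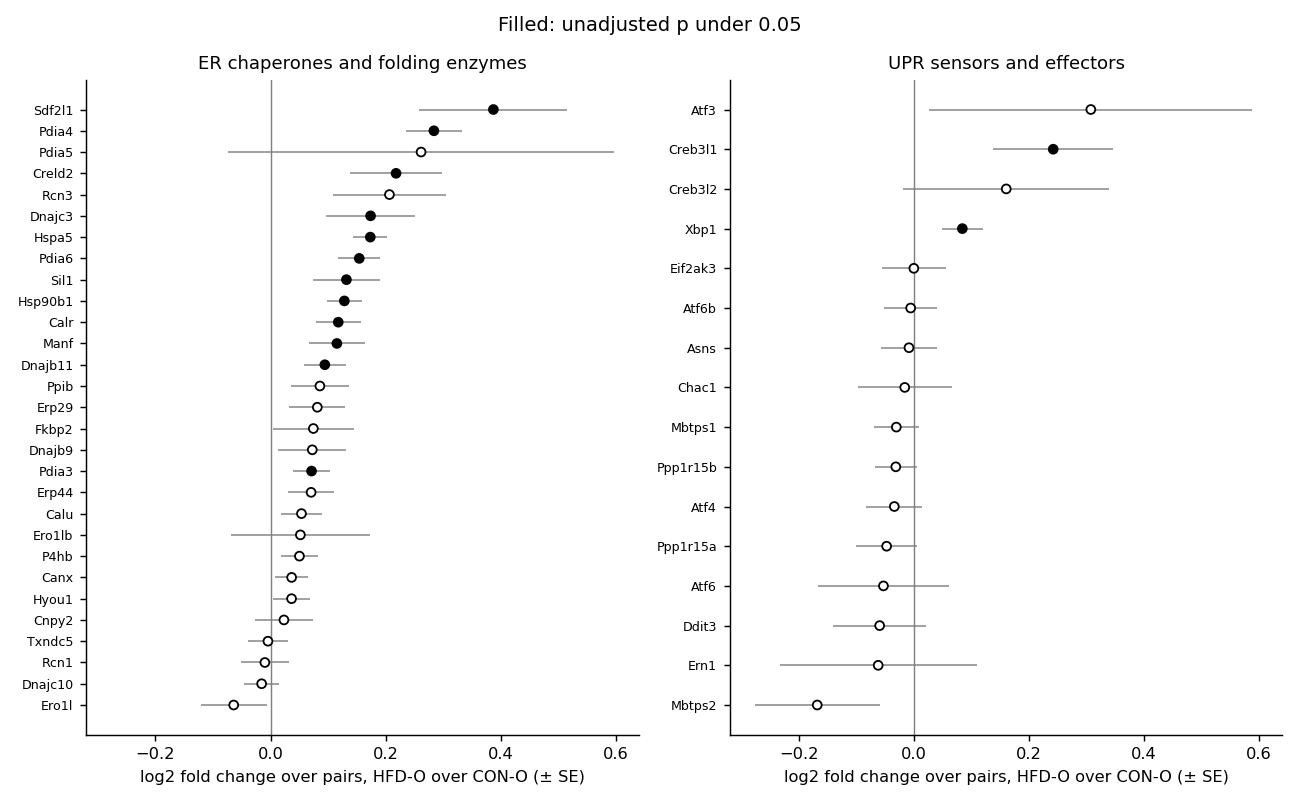
Log2 fold change over pairs (HFD-O over CON-O, with SE bars) of each tested ER chaperone or folding enzyme (29, left) and each tested sensor or effector of the unfolded protein response (UPR; 16, right), filled where the unadjusted p is under 0.05. On the left 25 points lie above 0 and 12 are filled, and on the right 4 lie above 0 and 2 are filled.

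The promoters of the first-ranked chaperones are shown because many ER chaperone genes of mammals carry the ER stress response element (ERSE), through which the factor ATF6 acts together with NF-Y. The sequences are RefSeq's 250 bases before to 50 after the gene's start in build GRCr8, 5′ to 3′ on the gene's strand, with each match in capitals. Pdia6 had no entry in the table used. Hspa5 lies on chromosome 3 (chr3:38452766-38453065, plus strand), Hsp90b1 on chromosome 7 (chr7:23012244-23012543, minus strand) and Pdia4 on chromosome 4 (chr4:78153142-78153441, minus strand).
Hspa5: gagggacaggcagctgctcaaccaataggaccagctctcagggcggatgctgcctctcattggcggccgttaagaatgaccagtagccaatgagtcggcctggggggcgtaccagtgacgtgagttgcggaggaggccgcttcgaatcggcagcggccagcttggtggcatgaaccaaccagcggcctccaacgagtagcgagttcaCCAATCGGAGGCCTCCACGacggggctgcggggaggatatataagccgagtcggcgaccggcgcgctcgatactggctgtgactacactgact
Hsp90b1: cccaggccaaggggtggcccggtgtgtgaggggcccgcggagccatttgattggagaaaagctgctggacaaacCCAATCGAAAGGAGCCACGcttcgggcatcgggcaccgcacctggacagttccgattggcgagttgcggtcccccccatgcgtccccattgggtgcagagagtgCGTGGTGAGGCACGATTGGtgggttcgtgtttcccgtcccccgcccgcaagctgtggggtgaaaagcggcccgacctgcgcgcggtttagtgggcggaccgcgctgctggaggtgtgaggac
Pdia4: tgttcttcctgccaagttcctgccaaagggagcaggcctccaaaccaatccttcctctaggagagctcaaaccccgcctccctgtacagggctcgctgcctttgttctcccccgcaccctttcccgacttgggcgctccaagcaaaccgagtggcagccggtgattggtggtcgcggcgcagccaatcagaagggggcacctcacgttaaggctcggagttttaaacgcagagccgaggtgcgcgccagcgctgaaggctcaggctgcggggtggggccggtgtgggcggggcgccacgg
The motifs searched on both strands were ERSE (CCAAT, any 9 bases, CCACG) and ERSE-II (ATTGG, any 1 base, CCACG). The Hspa5 promoter held 1 ERSE, 43 to 25 bases before the start, and the Hsp90b1 promoter held 2. Pdia4 held neither in this window. Of the 29 list members tested 24 had a promoter in the table, 25 promoters in all, and 9 of the 24 genes held a motif (ERSE in 7, ERSE-II in 2), 6 of them among the 9 with an unadjusted p under 0.05. Either motif was found in 0.117% of all 33469 promoters listed by RefSeq, and in 0.248% of the 10068 of tested genes. A match describes these letters only.

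Slc12a4, a potassium-chloride cotransporter, had the smallest p of all, with 27.8, 32.6 and 35.0 CPM (lowest, median, highest) over CON-O pairs. Over HFD-O pairs it was at 38.0, 42.5 and 48.0 CPM, which left no overlap (log2 fold change 0.43 ± 0.065, quasi-likelihood adjusted p = 0.0974, two-sided exact permutation p = 0.00216). Myh14, a non-muscle myosin heavy chain, was at 36.1, 39.5 and 40.7 CPM against 43.0, 47.9 and 52.1 CPM (0.29 ± 0.050, adjusted p = 0.0974). Both were thus higher in every HFD-O pair than in any CON-O pair, although the libraries labelled male and female of one pair could differ by up to 1.31 times for Slc12a4 and 1.29 times for Myh14.

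Serpinh1, the ER chaperone that is specific to collagen (HSP47), was at 102.8, 116.8 and 128.5 CPM in CON-O and 136.1, 138.9 and 157.7 CPM in HFD-O (log2 fold change 0.32 ± 0.059, adjusted p = 0.152). Gpx8, a peroxidase of the ER membrane, was at 9.22 to 10.9 CPM against 11.9 to 15.0 CPM (0.40 ± 0.077). Lgals1, a secreted lectin, was at 8.50 to 11.5 CPM against 12.2 to 16.4 CPM (0.48 ± 0.095). These 3 also had no overlap between the diets, and their adjusted p was 0.152 to 0.233. Cd48 (0.37 ± 0.082), a receptor of leukocytes, Lyve1 (0.52 ± 0.11), a hyaluronan receptor of lymphatic endothelium and of the macrophages at brain borders, and Anxa5 (0.31 ± 0.067), which binds phosphatidylserine, overlapped between the diets, each with an adjusted p of 0.384.

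Genes lower in HFD-O ranked later, the first of them 25th by p. Fcho1, a starter of clathrin-coated pits, was at 125, 141.4 and 166 CPM in CON-O and 105.2, 115.7 and 127.6 CPM in HFD-O (log2 fold change -0.28 ± 0.068, adjusted p = 0.388). Its highest HFD-O pair reached into the CON-O range. Gpr27, an orphan receptor of the brain, did not overlap, with 14.3 to 20.1 CPM in CON-O and 11.6 to 13.4 CPM in HFD-O (-0.34 ± 0.088, adjusted p = 0.412). Jph1, a junctophilin that ties the ER to the plasma membrane, did not overlap either, at 1.29 to 2.41 CPM and 0.689 to 1.26 CPM (-0.76 ± 0.20, adjusted p = 0.464). Also in this ranking were Zfp512b (-0.17 ± 0.043), Gigyf1 (-0.25 ± 0.064), a brake on translation, Nptx2 (-0.15 ± 0.039), a pentraxin of excitatory synapses, Fbxo24 (-0.80 ± 0.22), Opa3 (-0.17 ± 0.046), a mitochondrial protein, and Caskin1 (-0.11 ± 0.031), a synaptic scaffold.

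Leptomeningeal and matrix genes had larger fold changes, and pairs of one diet also differed widely. Col1a1, which encodes a type I collagen chain, had levels of 39.8, 59.8 and 104.5 CPM over CON-O pairs and 51.0, 129.7 and 190.7 CPM over HFD-O pairs (log2 fold change 0.97 ± 0.27, adjusted p = 0.464, two-sided exact permutation p = 0.026). Col1a2 (0.95 ± 0.30) and Col3a1 (0.95 ± 0.26) had the same course. Igf2, a growth factor made by the meninges at this age, was at 66.9, 102.8 and 223.3 CPM against 96.2, 246.2 and 378.2 CPM (0.97 ± 0.32, adjusted p = 0.519, exact permutation p = 0.0411). In each of these 4 genes 5 of 6 HFD-O pairs lay above the CON-O median, HFD-O pair 10 being the exception each time, and the diets overlapped.

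All 17 leptomeningeal markers tested were higher in HFD-O and 12 had an unadjusted p under 0.05, with a median log2 fold change of 0.794. The members of smallest p were Tbx18 (0.73 ± 0.20), a transcription factor, Slc6a13 (1.40 ± 0.44), a GABA transporter, Gjb2 (0.79 ± 0.25), a gap junction protein, and Igfbp2 (0.26 ± 0.088). Their summed level was 205.8 to 761.1 CPM in CON-O and 213 to 1422 CPM in HFD-O. It was highest in HFD-O pairs 12, 9 and 11 (1422, 1111 and 878.3 CPM) and in CON-O pair 1 (761.1 CPM), and HFD-O pair 10 (213 CPM) lay among the lowest CON-O pairs. Without HFD-O pair 12 the markers with an unadjusted p under 0.05 numbered 4. Of the 15 markers tested within each sex, 14 had an unadjusted p under 0.05 in the libraries labelled female (11 without pair 9) and 0 in those labelled male (0 without pair 9), with medians of 0.918 and 0.638 (0.778 and 0.603 without pair 9); the difference between the sexes was not called for any gene.

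All 20 matrix glycoproteins and proteoglycans were higher, 14 of them with an unadjusted p under 0.05 (median 0.523), among them Mfap4 (0.55 ± 0.13), Lum (0.68 ± 0.17), Bgn (0.56 ± 0.14) and Fbln1 (0.59 ± 0.17). Of 22 genes that fold and process collagen 21 were higher and 7 had an unadjusted p under 0.05 (median 0.177), led by Serpinh1, Pcolce (0.91 ± 0.28) and Fkbp14 (0.46 ± 0.15), and 4 did without HFD-O pair 7. For the matrix glycoproteins the count ran from 11 to 15 without each pair. Of 10 fibrillar collagens 6 were higher, 3 with an unadjusted p under 0.05, and of 10 basement membrane genes 7 were higher, with Lamc3 (0.58 ± 0.15) and Nid2 (0.44 ± 0.13) the 2 of unadjusted p under 0.05 (4 without CON-O pair 6). The matrix glycoproteins and the ER chaperones thus had different spreads: the summed chaperones did not overlap between the diets and the summed matrix genes did (279.3 to 397.4 CPM and 298.7 to 591.5 CPM).

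In a bulk tissue, more cells of a type and more RNA per cell cannot be told apart. With the log2 of the summed leptomeningeal level as a covariate of the fit, an alternative added after the data were seen, 0 genes were called for diet (smallest adjusted p 0.36). The log2 fold change of Hspa5 was then 0.17 ± 0.034, that of Pdia4 0.27 ± 0.055 and that of Slc12a4 0.43 ± 0.073, against 0.17, 0.28 and 0.43 without the covariate. For Col1a1 it was 0.57 ± 0.19, for Col3a1 0.55 ± 0.17 and for Igf2 0.44 ± 0.14, against 0.97, 0.95 and 0.97. Ptgds made up 54.7% of the summed level and Igfbp2 24.8%, so the sum and the covariate mostly followed these 2 genes. With both left out of the sum, also an alternative added after the data were seen, 0 genes were called (smallest adjusted p 0.375), and the log2 fold changes were 0.17 for Hspa5, 0.26 for Pdia4, 0.42 for Slc12a4, 0.35 for Col1a1, 0.33 for Col3a1 and 0.21 for Igf2. The estimates of Hspa5, Pdia4 and Slc12a4 were nearly the same with either covariate and those of Col1a1, Col3a1 and Igf2 smaller. The markers in the sum were themselves higher in HFD-O, so the covariate also takes up diet differences that go with them. Collagen and Igf2 are made by the leptomeninges, so smaller estimates for them follow from the choice of covariate. The source of either set of differences was not tested.

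Markers of blood, border macrophages, microglia and vessels were also counted. All 10 erythroid genes tested were higher in HFD-O, 3 with an unadjusted p under 0.05 (median 0.893), led by Ahsp (1.55 ± 0.44), which stabilises alpha globin, and Slc4a1 (1.28 ± 0.48), the red cell anion exchanger. Their summed level was 725.8 to 2458 CPM in CON-O and 753 to 6128 CPM in HFD-O, with HFD-O pair 11 at the top, and without each pair in turn the median ranged from 0.362 to 1.17. Their number with an unadjusted p under 0.05 was 1 without HFD-O pair 11 and 7 without CON-O pair 1, HFD-O pair 8 or HFD-O pair 10. Border macrophage genes (Lyve1, Mrc1, Pf4 and F13a1) were higher in 4 of 4, 3 with an unadjusted p under 0.05 (1 without HFD-O pair 12). Of 15 microglial genes 13 were higher and 6 had an unadjusted p under 0.05, Laptm5 (0.23 ± 0.077) first. The microglial count was 2 without HFD-O pair 10, 3 without CON-O pair 1 or 5, and 10 without CON-O pair 6. Of 15 endothelial genes 13 were higher and 6 had an unadjusted p under 0.05, Emcn (0.40 ± 0.12) and Thbd (0.82 ± 0.30) first. None of these genes passed the test over all genes, and the part of blood, vessel and immune cells in the results was not tested.

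Dopaminergic genes were higher in HFD-O, with very unequal pairs. The paper counts the hypothalamus among the regions that hold dopamine neurons, and where these transcripts came from was not tested. Slc6a3, the dopamine transporter, was at 3.08, 5.88 and 33.6 CPM (lowest, median, highest) over CON-O pairs and 3.77, 27.9 and 64.2 CPM over HFD-O pairs (log2 fold change 1.60 ± 0.65, adjusted p = 0.584, two-sided exact permutation p = 0.11). Its log2 fold change was 2.404 without CON-O pair 1, 1.30 to 1.83 without any other single pair and 0.94 with the leptomeningeal covariate. Th, the rate-limiting enzyme of dopamine synthesis, was at 37.7, 39.8 and 67.2 CPM against 44.9, 66.6 and 111.4 CPM (0.72 ± 0.24, adjusted p = 0.521, exact permutation p = 0.0649). Aldh1a1, an aldehyde dehydrogenase of a subset of midbrain dopamine neurons, was at 7.27, 7.80 and 25.5 CPM against 10.7, 30.6 and 44.4 CPM (1.34 ± 0.39, adjusted p = 0.472, exact permutation p = 0.026). CON-O pair 1 and HFD-O pairs 7, 9 and 11 were the high pairs for Slc6a3 and Th, and the diets overlapped for all 3 genes. Of 8 midbrain dopamine markers tested 8 were higher, 3 with an unadjusted p under 0.05, and of 11 genes of dopamine synthesis and signalling 10 were higher, 4 with an unadjusted p under 0.05. The latter count was 1 without CON-O pair 3, HFD-O pair 7 or HFD-O pair 11, and 2 without CON-O pair 6 or HFD-O pair 9.

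Summing to pairs also hid wide differences between the libraries of one pair. For Slc6a3 the libraries of a pair differed by more than 2 times in 10 of 12 pairs, and by 38.5 times in HFD-O pair 11, where it was at 122.7 CPM in the library labelled male and 3.19 CPM in the one labelled female. The summed leptomeningeal markers differed by more than 2 times in 6 pairs (in 2 with Ptgds and Igfbp2 left out), and by 7.60 times in CON-O pair 1 (1254 and 164.9 CPM). Erythroid genes differed by up to 4.02 times, also in CON-O pair 1 (3724 and 926.5 CPM). Hspa5 differed by no more than 1.08 times, Pdia4 by no more than 1.23 times and Hsp90b1 by no more than 1.13 times.

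**Figure D4:**
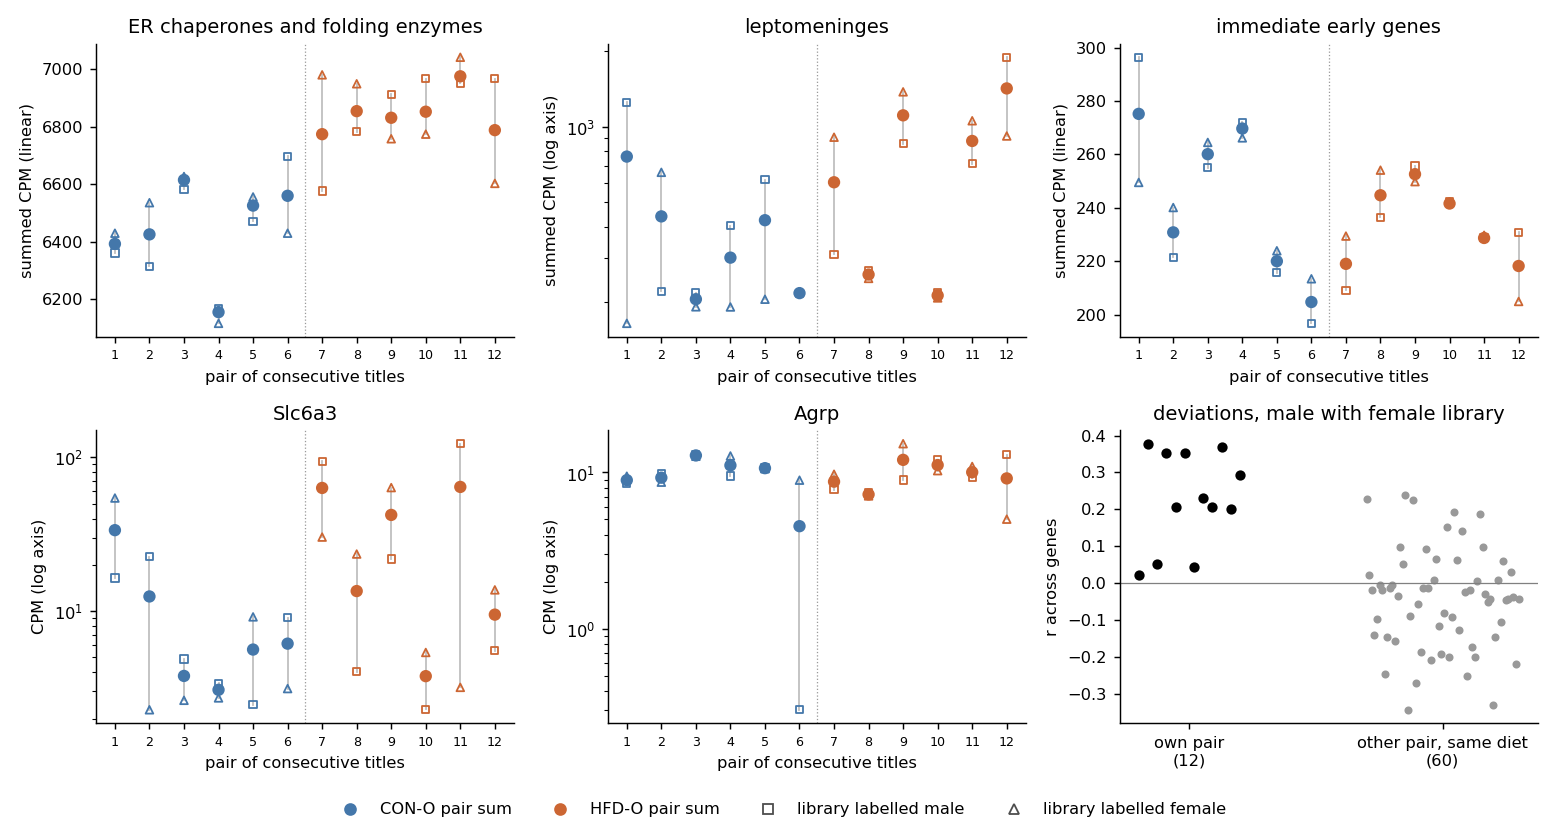
Pair sums (filled circles, blue for CON-O, orange for HFD-O) and their libraries labelled male (open squares) and female (open triangles) for 3 summed gene lists and for Slc6a3 and Agrp, by pair of consecutive titles, with log axes where named, and (lower right) the correlation r across genes of the deviations of a male and a female library, in its own pair (12) or with another pair of the same diet (60). The ER chaperones separate the diets by pair sum, the leptomeningeal markers and Slc6a3 scatter within pairs, Agrp is at 0.302 CPM in 1 library of pair 6, and r is positive in all 12 own pairs.

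The genes that define hypothalamic neurons were mostly lower by small amounts. Of 22 hypothalamic transcription factors 18 were lower in HFD-O and 3 had an unadjusted p under 0.05, with a median log2 fold change of -0.147. Otp, which specifies neurosecretory neurons, was at 43.8 to 53.8 CPM in CON-O and 40.7 to 48.9 CPM in HFD-O (-0.17 ± 0.058, adjusted p = 0.521). Six3 (-0.17 ± 0.059) and Fezf1 (-0.21 ± 0.083), factors of the developing forebrain, followed. Summed, the list was at 499.9 to 647.8 CPM in CON-O, the lowest being pair 6, and 511.5 to 603.4 CPM in HFD-O. Without each pair in turn 2 to 8 members were lower with an unadjusted p under 0.05, the 8 being without CON-O pair 6 and 5 without HFD-O pair 8, and 2 rather than 4 were higher without CON-O pair 5 or 6. Of 18 general neuronal genes 4 were higher, 0 without CON-O pair 4, 1 without CON-O pair 1 or HFD-O pair 7 and 2 without HFD-O pair 11. The other 14 were lower, 1 with an unadjusted p under 0.05, Gad2 (-0.23 ± 0.085), which makes GABA, and 3 or 4 did without CON-O pair 2, 4 or 6 or HFD-O pair 7, 11 or 12.

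The appetite genes showed no common direction. Of 21 peptides and receptors tested 10 were higher and 11 lower, with a median of -0.0105, and in the female libraries alone 4 of 20 were higher (4 without pair 9). Npy, the orexigenic peptide of the arcuate nucleus, was at 32.2, 42.9 and 49.6 CPM in CON-O and 36.4, 39.8 and 46.3 CPM in HFD-O (log2 fold change -0.04 ± 0.092, adjusted p = 0.949). Agrp, expressed in the same neurons, was at 4.53, 9.96 and 12.9 CPM against 7.23, 9.60 and 12.1 CPM (0.02 ± 0.19), and without CON-O pair 6 its log2 fold change was -0.12. Pomc was at 15.3, 23.9 and 30.3 CPM against 22.3, 25.8 and 31.5 CPM (0.13 ± 0.13, adjusted p = 0.844), and 0.04 without CON-O pair 6. Lepr, the leptin receptor, was at 1.43, 2.44 and 4.57 CPM against 1.65, 2.60 and 5.66 CPM (0.27 ± 0.31, adjusted p = 0.878; 0.49 without CON-O pair 1 and 0.0087 without HFD-O pair 12). Within 2 SE the interval of each of these 4 differences spans 0, and a difference of that size beside its SE could not be told from 0 with 6 pairs.

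Hcrtr1, a receptor of the orexins, was the appetite gene of smallest p (log2 fold change -0.13 ± 0.058), and its ligand Hcrt, made in the lateral hypothalamus, had -0.31 ± 0.16. Among 16 neuroendocrine peptides 10 were higher and 6 lower (6 of 15 higher in the male libraries alone, with or without pair 9). Kiss1, which encodes the kisspeptins of the reproductive axis, was at 1.15 to 2.66 CPM in CON-O and 0.786 to 1.80 CPM in HFD-O (-0.66 ± 0.24, unadjusted p = 0.0135), and Avp, the antidiuretic hormone, was at 96.9 to 202.3 CPM and 159.4 to 224.5 CPM (0.27 ± 0.14). Of 13 clock genes 10 were lower and 3 higher (1 without CON-O pair 2, 5 in the female libraries alone, with or without pair 9), with Cry2 (-0.11 ± 0.044) the 1 of unadjusted p under 0.05, where 3 were found without HFD-O pair 12.

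Among the glia, Gfap, an intermediate filament protein of astrocytes, was at 263.5, 319.8 and 416.4 CPM in CON-O and 326.5, 451.4 and 519.6 CPM in HFD-O (log2 fold change 0.42 ± 0.11, adjusted p = 0.464, exact permutation p = 0.0173). Gjb6 (0.74 ± 0.22) and Vim (0.30 ± 0.096) were the other astrocyte genes with an unadjusted p under 0.05, 3 of 12 in all (6 without CON-O pair 6). All 16 myelin genes were higher, by a median of 0.278, but only 1 had an unadjusted p under 0.05, Aspa (0.50 ± 0.13), which breaks down N-acetylaspartate. The summed myelin level overlapped, at 1583 to 3800 CPM in CON-O, the highest being pair 6, and 1790 to 3141 CPM in HFD-O. Without pair 6 the median was 0.568 and 13 of the 16 had an unadjusted p under 0.05. All 9 genes of ciliated ependyma were higher as well, Tekt4 (0.40 ± 0.12) first, and 6 of 10 tanycyte genes, 3 of them with an unadjusted p under 0.05 (1 without CON-O pair 1, 2 or 4 or HFD-O pair 9).

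**Figure D5:**
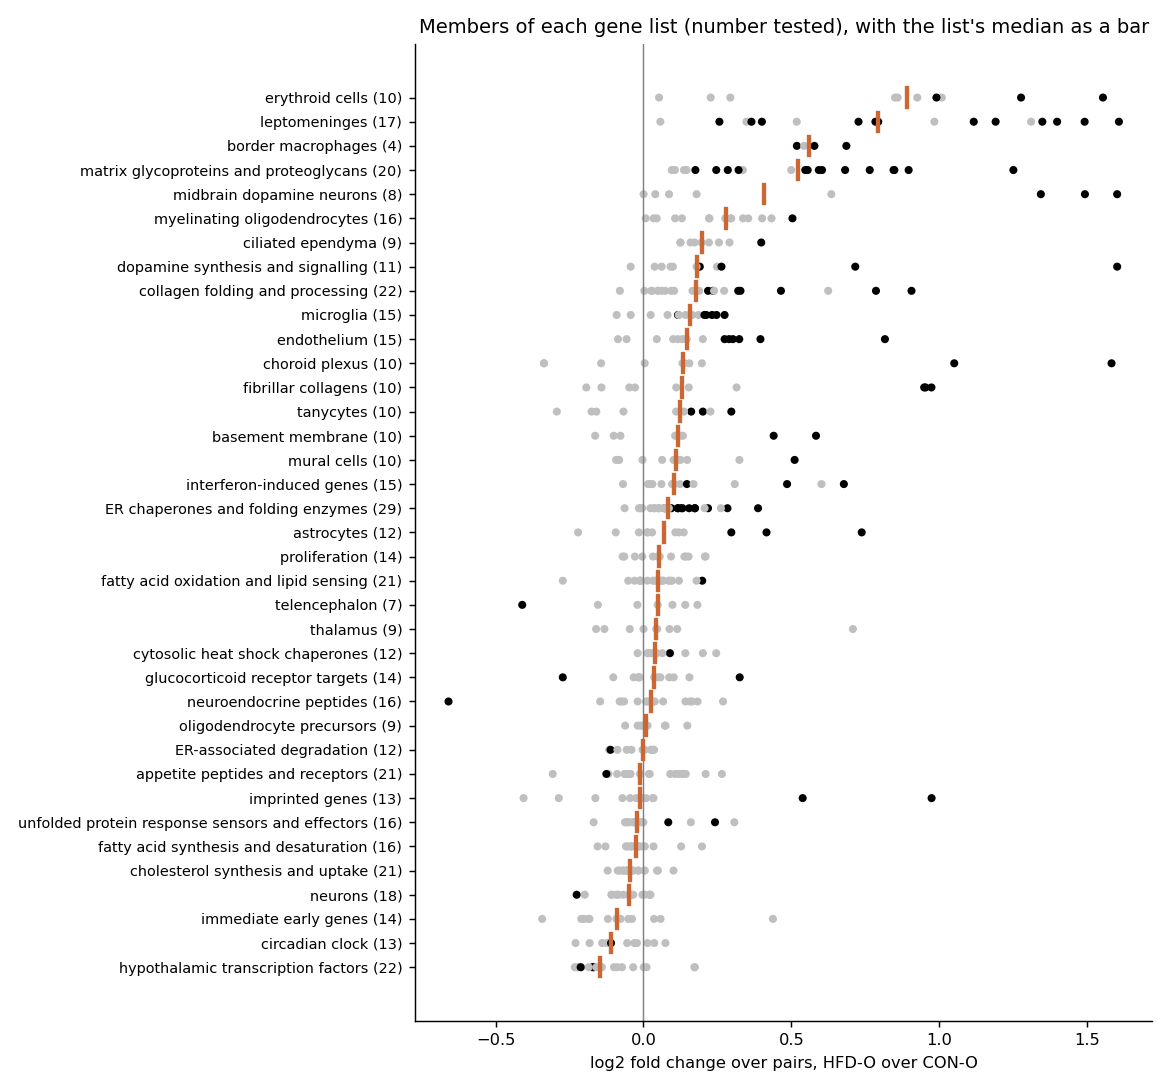
Log2 fold change over pairs (HFD-O over CON-O) of the tested members of each gene list with at least 4 members tested (number in brackets), one point a gene, black where the unadjusted p is under 0.05 and grey otherwise, with the median of the list as an orange bar. Erythroid and leptomeningeal genes have the highest medians (0.893 and 0.794) and hypothalamic transcription factors the lowest (-0.147). The 29 ER chaperones and folding enzymes run from -0.064 to 0.39 with a median of 0.0814.

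Alox15, a lipoxygenase of fatty acids, was at 32.4, 71.0 and 93.1 CPM in CON-O and 38.0, 142.1 and 425.9 CPM in HFD-O (log2 fold change 1.37 ± 0.43, adjusted p = 0.509, exact permutation p = 0.0606; 0.89 without HFD-O pair 11). Its libraries differed most in CON-O pair 1 (145.9 CPM under the male and 28.72 CPM under the female label), as those of the erythroid genes did. The erythroid sum was highest in HFD-O pair 11. Whether Alox15 followed the blood in the libraries was not tested. The lists of lipid handling genes differed little. Of 21 genes of cholesterol synthesis and uptake 16 were lower, the median log2 fold change over all 21 was -0.0447 and none had an unadjusted p under 0.05; 5 were higher, against 3 without CON-O pair 1 and 9 in the female libraries alone with or without pair 9, and 3 had an unadjusted p under 0.05 without CON-O pair 5. Of 21 genes of fatty acid oxidation and lipid sensing 15 were higher, Cpt2 (0.20 ± 0.070), a mitochondrial carnitine palmitoyltransferase, being the one with an unadjusted p under 0.05 (3 without CON-O pair 4 and 4 without CON-O pair 6). Of 16 genes of fatty acid synthesis and desaturation 12 were lower and 4 higher (8 higher without CON-O pair 6), none with an unadjusted p under 0.05. Interferon-induced genes were higher in 14 of 15, 3 with an unadjusted p under 0.05 (among them Bst2 0.49 ± 0.16 and Ifi27 0.68 ± 0.22). Glucocorticoid receptor targets were divided, 8 higher and 6 lower, with Txnip, an inhibitor of thioredoxin, at 47.1 to 54.6 CPM in CON-O and 53.0 to 72.7 CPM in HFD-O (0.33 ± 0.082, unadjusted p = 0.00113), and Zbtb16, a transcription factor, the 1 lower member with an unadjusted p under 0.05 (-0.27 ± 0.12). Of 13 imprinted genes 5 were higher, 2 of them with an unadjusted p under 0.05, Igf2 and the cell cycle inhibitor Cdkn1c (0.54 ± 0.17), and of 14 proliferation genes 10 were higher, none with an unadjusted p under 0.05.

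The number of genes called differed with the unit of replication. When the 24 libraries were taken as 24 replicates with sex as a covariate, 19 genes were called higher (0.163%) and 3 lower (0.0258%) of 11648, the lower ones being Zfp512b, Fcho1 and Gigyf1. Littermates among the CON-O libraries then count as separate replicates, so such calls do not rest on the spread between litters. Limma-voom on the same 24 libraries, an alternative added after the data were seen, also called 19 higher (0.163%) and 3 lower (0.0258%). When the pair was added to that fit as a random block (consensus correlation within pairs 0.316), 3 were called, all higher (0.0258%): Hspa5 (adjusted p = 0.00308), Pdia4 (0.0441) and Slc12a4 (0.0448). The estimates barely moved with the unit. Hspa5 had a log2 fold change of 0.17 over pairs, 0.18 over 24 libraries and 0.18 with the block, and Slc12a4 0.43 in all 3 fits. Without HFD-O pair 11, 2 genes were called over pairs, Slc12a4 and Myh14 (smallest adjusted p 0.0473). Without any other single pair none was.

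Hspa5 and Slc12a4 were also read under each sex label. They were among the first-ranked genes on sums of these same libraries, so positive values under both labels are a description and no separate support. In the 12 libraries labelled male the log2 fold change of Hspa5 was 0.19 ± 0.035, and in the 12 labelled female it was 0.17 ± 0.039. Without the libraries of pair 9 these were 0.18 ± 0.037 and 0.17 ± 0.042. For Slc12a4 they were 0.38 ± 0.087 and 0.48 ± 0.095, and without pair 9 0.35 ± 0.092 and 0.51 ± 0.10. Neither set of 12 libraries gave a called gene, with or without pair 9. Slc6a3 was less even, at 2.10 ± 0.82 under the male and 0.95 ± 0.75 under the female label, and without pair 9 at 2.23 ± 0.86 and 0.33 ± 0.75. The difference between the sexes was not called for any gene.

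Within pairs, sex itself was tested with the pair as a block. Over all 12 pairs 2 of 11648 genes were called, both higher under the female label (0.0172%), Eif2s3x and Pbdc1 (adjusted p = 0.0201 each), and 621 had an unadjusted p under 0.05. Without pair 9, 5 of 11675 genes were called, 4 higher under the female label (0.0343%), LOC680227, Eif2s3x (log2 male over female -0.55), Ddx3x (-0.26) and Pbdc1 (-0.38), and 1 higher under the male label (0.00857%). The pair was left out because of these 4 genes, so their values without it are a description and no p is given. The gene higher under the male label was Sst, the peptide somatostatin (0.16 ± 0.027, quasi-likelihood adjusted p = 0.0303), at means of 205.6 CPM in the 11 libraries labelled male and 184.4 CPM in the 11 labelled female. The library of pair 6 that stood apart is among these. Without pairs 6 and 9, an alternative added after the data were seen, Sst was not called (0.14 ± 0.026, adjusted p = 0.0904), and the 4 genes higher under the female label were (0.0343% of 11658).

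The diet by sex difference, measured as the male less female contrast of each pair compared between the diets, gave 0 called genes of 11648 (0%), with 387 at an unadjusted p under 0.05 and a smallest adjusted p of 0.998. The likelihood ratio test called 0 as well, and so did the quasi-likelihood test with no replicate block. The gene of smallest p was Rpp40, a subunit of ribonuclease P, which was higher in the library labelled male in 6 of 6 CON-O pairs and in 0 of 6 HFD-O pairs (male less female effect -0.99 ± 0.23). Mak, a kinase of cilia (1.07 ± 0.25), and Fau, which encodes a ribosomal protein fused to a ubiquitin-like domain (-0.52 ± 0.13), came next. Without pair 9 these 3 were -1.10 ± 0.23, 1.00 ± 0.26 and -0.50 ± 0.14, and 0 genes were called (smallest adjusted p 1, 361 at an unadjusted p under 0.05).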

How the data were processed

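Total RNA of 24 hypothalami was sequenced (Illumina HiSeq, TruSeq), and the authors describe FastQC, Trimmomatic, Bowtie2 and edgeR, while the submitters' processing notes name FastQC, TopHat, edgeR and build rn6. For the counting program, annotation, strand setting and versions, nothing is given in the sources used here. Deposited by the authors were 1 table per sex with whole-number counts per gene and library, and these deposited counts were used as they stand. A further block of library columns, holding those counts divided by constants, and the authors' fold changes and p-values were not used. Rows with spreadsheet dates for names (23 and 24) could not be joined.

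Counts of genes named once in both tables (13860; 213 and 209 were in 1 table only) were summed over titles 1 and 2, 3 and 4, and so on to 12 pairs. In R 4.3.3 genes were filtered with filterByExpr (counts of at least 10, totals of at least 15), scaled by TMM (factors 0.986 to 1.02) and tested with edgeR 4.0.16 quasi-likelihood, Benjamini-Hochberg adjusted over all genes kept, with calls at 0.05. Alternatives used limma 3.58.1, DESeq2 1.42.0, other scaling and filters, other units of replication, and each pair left out in turn. Single genes were also tested by exact permutation of mean log2(CPM + 1) over all assignments of 6 of 12 pairs. SE are log2 fold change over the root of F. Sex and diet by sex were tested on 24 libraries with the pair as a block. Named genes were the 10 of smallest p in each direction, a fixed set (Col1a1, Col1a2, Col3a1, Igf2, Lepr, Th, Slc6a3, Aldh1a1, Gfap, Alox15, Npy, Agrp, Pomc), for each list up to 4 members of smallest p, and the 3 of smallest p for diet by sex; Ddit3, Atf4, the genes of the library check and others the text marks were named outside this rule, after their values were seen, and a few genes that the rule names are not reported here. The members and gene lists were chosen with earlier results of these data known, so lists are described by counts and medians without a test. Symbols were matched to RefSeq for 13593 genes, and promoters came from RefSeq (GRCr8). The tests over pairs and of diet by sex were tested on simulated counts. The 12 pairs held 12716032 to 15544361 counts, and intervals cover the spread between pairs only.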

Additional observations from a re-analysis of the deposited data

Results flagged for a closer look

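In 6 of 66 groups of 6 pairs (33 named genes, both diets) 1 pair lay far from the other 5, where chance alone sets apart about 1 group in 20. Agrp in CON-O pair 6 was at 4.53 CPM against 8.93 to 12.9 CPM in the other CON-O pairs, the pair whose library labelled male held 2 counts of it. Th in CON-O pair 1 was at 67.2 CPM against 37.7 to 45.8 CPM, the pair in which Slc6a3 and the leptomeningeal markers were also the highest of their diet. Myh14 in CON-O pair 2 was at 36.1 CPM against 39.3 to 40.7 CPM, and Cd48 in HFD-O pair 8 at 20.5 CPM against 23.9 to 24.99 CPM. Nptx2 in HFD-O pair 7 was at 139.5 CPM against 130 to 133.3 CPM, and Opa3 in HFD-O pair 10 at 37.2 CPM against 41.9 to 44.5 CPM.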

How the results depend on the processing

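Over pairs 0 genes were called in either direction. Calls higher in HFD-O numbered 25 with the likelihood ratio test and 17 with DESeq2, the 24 single libraries gave 19 higher and 3 lower, both by quasi-likelihood and by limma-voom, and with the pair as a random replicate block 3 higher. Leaving out each pair in turn gave 0 to 2 higher and 0 lower, and limma-voom, upper quartile factors, no filter, the mean of log2 CPM, each sex alone (with and without pair 9) and the leptomeningeal covariate, with or without its 2 most abundant genes, gave 0. No alternative called the diet by sex difference, with or without the replicate block. Sex within pairs gave 2 genes, 3 with no replicate block 5 without HFD-O replicate 9 and 4 without pairs 6 and 9, the last 2 being alternatives added after the data were seen. Restricting the within-pair correlation to genes of at least 10 CPM gave a median of 0.31 in place of 0.218.

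Of 881 values of 33 named genes under alternatives 14 had another sign, all in Npy, Agrp, Pomc and Lepr. Npy was at 0.063 in male libraries alone (0.053 without pair 9) and between -0.11 and 0.0076 without each pair, the last without CON-O pair 4. Agrp was at -0.12 in female libraries alone (-0.30 without pair 9), -0.013 with the covariate (-0.026 with the covariate less 2 genes) and between -0.12 and 0.12 without each pair, being -0.12 without CON-O pair 6, -0.050 without HFD-O pair 9 and -0.021 without HFD-O pair 10. Pomc was at -0.058 in female libraries alone (-0.11 without pair 9), and Lepr at -0.23 with the covariate and -0.43 with the covariate less 2 genes. Of 555 counts of list members higher in HFD-O 27 moved by over 1.5 times, in 13 lists. The ER chaperone, collagen and matrix lists were not among them, but a count near its maximum, such as 25 of 29, has little room to move by this measure. Without each pair in turn, members with an unadjusted p under 0.05 numbered 8 to 14 for ER chaperones, 4 to 8 for collagen folding and 11 to 15 for matrix glycoproteins. The replicate block changed no other call. Genes of about 1 CPM, such as Jph1, Fbxo24 and Kiss1, rest on few counts a pair. With 6 pairs a diet, differences that are small beside their SE could be missed.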

Other observations

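Of the 41 genes with all HFD-O pairs above all CON-O pairs, 5 not yet described are given here, all chosen for immune roles. The 41 are not all of this kind, and also hold Aldh9a1, Hnrnpf and Mthfd1. No theme among them was tested. The genes in this section were picked after their values were seen, and none passed the quasi-likelihood test. C2, a complement component, was at 12.6 to 15.6 CPM in CON-O and 16.3 to 19.9 CPM in HFD-O (log2 fold change 0.34 ± 0.076, adjusted p = 0.384). Fcgrt, the neonatal Fc receptor that carries maternal antibody, was at 27.8 to 35.2 CPM and 35.6 to 41.3 CPM (0.23 ± 0.059, adjusted p = 0.412). Tlr4, the receptor of bacterial lipopolysaccharide, was at 1.22 to 1.61 CPM and 1.73 to 2.34 CPM (0.51 ± 0.14, adjusted p = 0.464). Ifitm2, an interferon-induced membrane protein, was at 4.45 to 7.04 CPM and 7.30 to 9.28 CPM (0.43 ± 0.11), and Ctsc, a lysosomal protease of immune cells, at 6.91 to 9.07 CPM and 9.51 to 12.0 CPM (0.34 ± 0.087).

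Of the 22 genes with all HFD-O pairs below all CON-O pairs, 2 are given. Dagla, which makes the endocannabinoid 2-arachidonoylglycerol at synapses, was at 130 to 144.8 CPM in CON-O and 122.2 to 128.9 CPM in HFD-O (log2 fold change -0.12 ± 0.035, adjusted p = 0.481). Acsl1, which activates long-chain fatty acids, was at 73.4 to 78.0 CPM and 65.2 to 72.1 CPM (-0.13 ± 0.037, adjusted p = 0.464).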
